A study of Mus musculus with 4 samples.

Results

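Nfkbia, Tnfaip3, Dusp1, Socs3 and Atf3, which restrain signalling from Toll-like receptor 4 (TLR4), were followed here through the acetylation of histone H4 around them. Each was represented by a fixed window of the mm9 mouse genome around the gene, and its members are the acetylated H4 peaks that overlap the window. The windows were chr12:56560000-56620000 for Nfkbia, chr10:18640000-18780000 for Tnfaip3, chr17:26620000-26670000 for Dusp1, chr11:117790000-117860000 for Socs3 and chr1:192960000-193110000 for Atf3. They held 440 of the 175801 peaks listed in the 4 libraries of the series. That is 105 of 48706 peaks in resting wt, 95 of 39550 in stimulated wt, 107 of 41956 in resting KO and 133 of 45589 in stimulated KO. Here resting stands for untreated, stimulated for treated with LPS, wt for HDAC3 +/- and KO for HDAC3 -/-.

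The peaks came from chromatin immunoprecipitation and sequencing (ChIP-seq) with an antibody against acetylated histone H4. The cells were primary macrophages grown from C57BL/6 bone marrow in L929-conditioned medium and taken on day 7 of differentiation. The 4 groups were HDAC3 +/- cells, which the submitters call wild type (wt), left untreated; HDAC3 +/- cells given lipopolysaccharide (LPS) at 100 ng/ml for 4 h; HDAC3 -/- cells (HDAC3 KO) left untreated; and HDAC3 -/- cells given the same LPS treatment. The wt cells therefore carry only a single functional copy of HDAC3, and how the allele was deleted is not given in the sources used here. Each group had 1 library, so every difference below lies between single libraries, has no replicate check and carries no p-value. The loci were chosen by name with earlier results of these data known, and the Tnfaip3 window holds a stretch already known to differ between the libraries, so all values are descriptions.

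LPS binds TLR4 on macrophages and switches on NF-kappa B, MAP kinases and interferon-dependent genes. The same signal induces its own brakes. Nfkbia encodes I kappa B alpha, which holds NF-kappa B in the cytoplasm and is made again after each wave of activation, and Tnfaip3 encodes A20, a ubiquitin-editing enzyme that shuts down signalling upstream of NF-kappa B. Dusp1 encodes MKP-1, a phosphatase that inactivates the MAP kinases p38 and JNK. Socs3 encodes an inhibitor of cytokine signalling through JAK kinases and STAT3, and Atf3 encodes a transcription factor of the ATF/CREB family that represses inflammatory genes such as Il6. Acetylated H4 is found at promoters and enhancers in use. HDAC3 removes acetyl groups from histones and acts in the NCoR and SMRT corepressor complexes.

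The stretches of 250 bases just before the start site of each gene are shown, because they carry recognition letters of the factors that these pathways use. They are RefSeq promoters of build GRCm38.p6, another build than that of the peaks, so no peak was placed on them. A promoter entry was found for 5 of the 5 genes. Tnfaip3 had a further entry, in which none of the motifs was found and which is not printed. Capitals mark matches on either strand to the 10-letter NF-kappa B motif (GGG at the start, TTTCC at the end, any letters between), TTCNNNGAA (STAT), TGACGT (CRE and ATF) or TGANTCA (AP-1), each written 5′ to 3′.
Nfkbia, chr12:55492648-55492897, minus strand: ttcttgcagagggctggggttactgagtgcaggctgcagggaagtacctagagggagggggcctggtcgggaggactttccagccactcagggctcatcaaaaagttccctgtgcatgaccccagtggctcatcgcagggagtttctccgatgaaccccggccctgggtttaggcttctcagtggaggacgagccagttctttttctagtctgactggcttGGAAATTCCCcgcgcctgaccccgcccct
Tnfaip3, chr10:19015411-19015660, minus strand: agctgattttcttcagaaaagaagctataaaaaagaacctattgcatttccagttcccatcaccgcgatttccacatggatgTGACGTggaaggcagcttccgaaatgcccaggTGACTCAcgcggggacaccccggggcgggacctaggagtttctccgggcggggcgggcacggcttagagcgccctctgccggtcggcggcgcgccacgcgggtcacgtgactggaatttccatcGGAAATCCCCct
Dusp1, chr17:26508473-26508722, minus strand: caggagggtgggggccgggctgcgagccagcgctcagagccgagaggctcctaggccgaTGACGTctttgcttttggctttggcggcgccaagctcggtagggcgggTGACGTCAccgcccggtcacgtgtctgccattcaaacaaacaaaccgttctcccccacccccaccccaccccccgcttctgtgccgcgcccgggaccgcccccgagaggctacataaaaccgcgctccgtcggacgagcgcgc
Socs3, chr11:117969367-117969616, minus strand: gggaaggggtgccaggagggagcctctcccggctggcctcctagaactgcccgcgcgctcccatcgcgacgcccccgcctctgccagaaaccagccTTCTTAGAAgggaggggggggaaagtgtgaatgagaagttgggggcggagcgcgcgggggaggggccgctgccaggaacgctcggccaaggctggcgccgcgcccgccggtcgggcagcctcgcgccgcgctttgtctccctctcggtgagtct
Atf3, chr1:191183334-191183583, minus strand: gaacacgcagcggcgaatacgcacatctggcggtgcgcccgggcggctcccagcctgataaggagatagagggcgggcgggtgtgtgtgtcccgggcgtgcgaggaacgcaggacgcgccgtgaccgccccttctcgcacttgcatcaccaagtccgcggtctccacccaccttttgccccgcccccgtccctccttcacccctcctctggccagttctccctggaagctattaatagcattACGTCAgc
The NF-kappa B letters stood in the Nfkbia and Tnfaip3 stretches, 29 and 12 bases before the start at their first base, and in 1.41% of 32851 RefSeq promoter stretches of this length. The STAT letters stood in Socs3 and in 7.02% of all stretches. TGACGT stood in Dusp1, Atf3 and Tnfaip3 and in 6.47% of all stretches. In Dusp1 it matched 3 times, because a forward and a reverse match overlap in the palindrome. The AP-1 letters stood in Tnfaip3 alone of the 5 and in 6.75% of all stretches. A match is a run of letters and does not show that a factor binds there.

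Each window is described by its covered length and by the scores of its peaks. Covered length is the number of base pairs under the peaks of a library, cut at the window's edges. The score, a value the authors' peak caller gave each peak, is read only as a rank within its list, because its scale is unstated and depth and input both enter it. Many of the highest scores were tied at 3100. The stimulated lists had higher scores as a whole. Their top 10% began at 802 in wt and 804 in KO, against 452 and 497 in the resting lists. A score that is higher after LPS at a given place is thus not by itself a higher rank. Read depth was unknown. The lists as a whole covered 35.4 Mb in resting wt, 37.4 Mb in stimulated wt, 36.4 Mb in resting KO and 50.4 Mb in stimulated KO, so ratios are also given with each library scaled to its total. Macrophage marker genes and the Hdac3 gene were not examined, since gene models of mm9 were not used here.

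**Figure D1:**
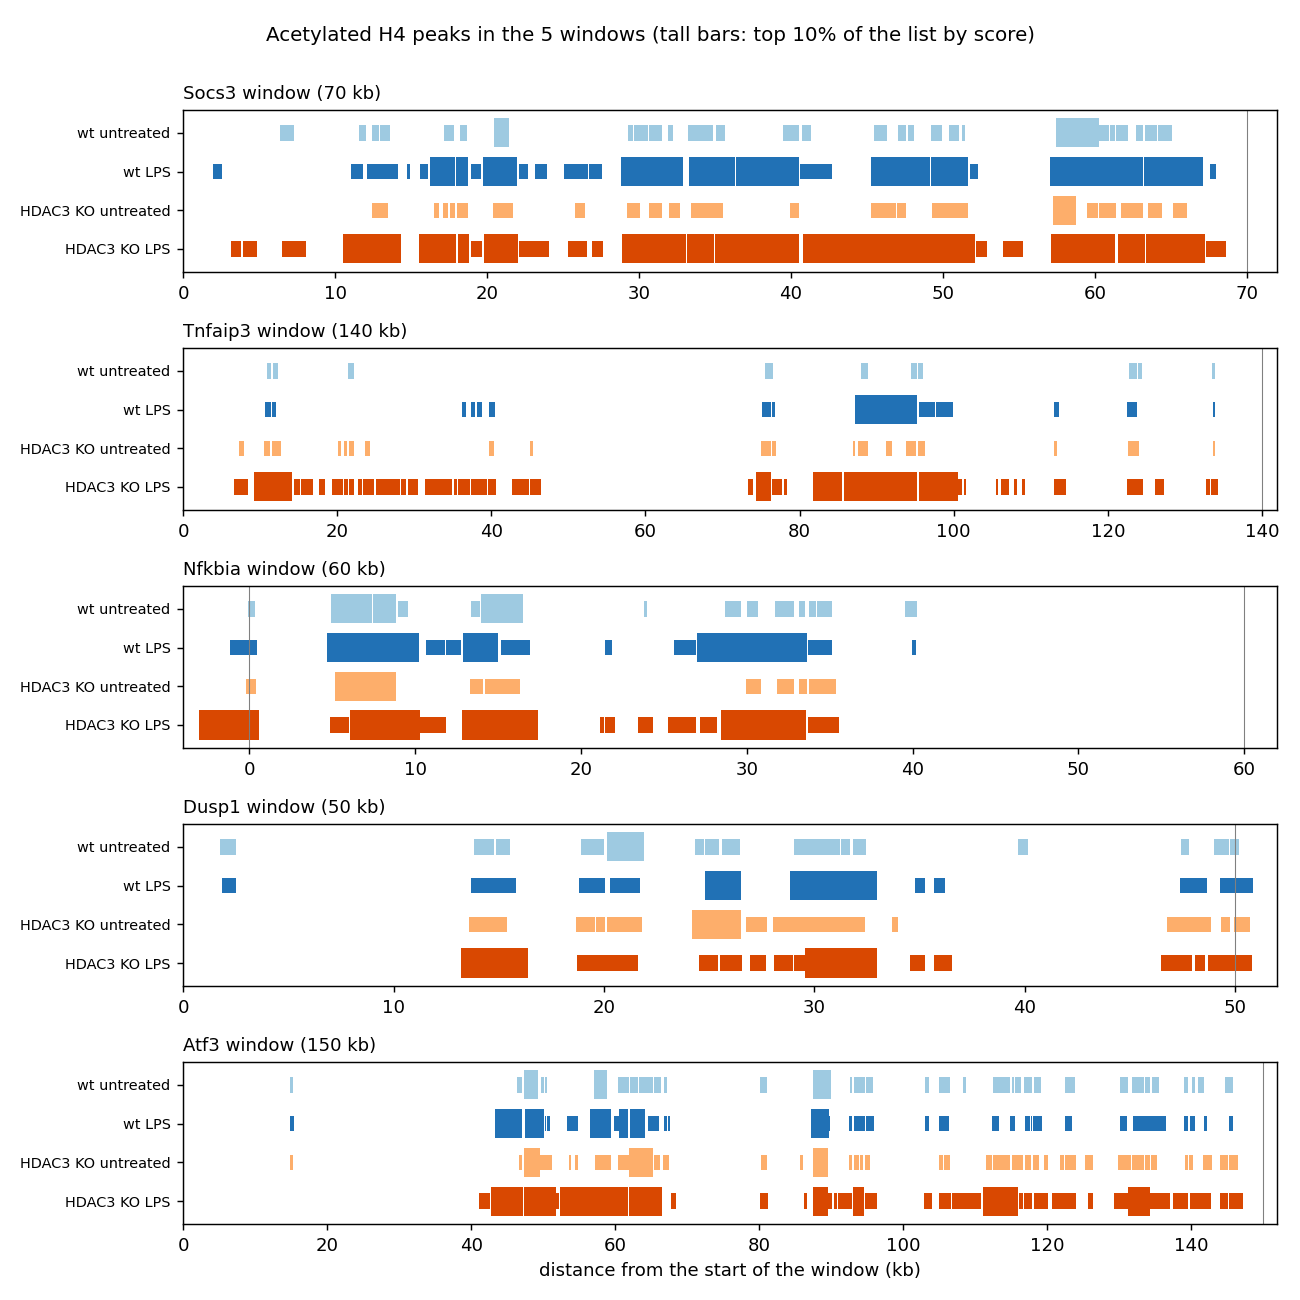
Peaks of acetylated H4 in the 5 windows, drawn along the distance from the start of each window in kb, with a row for each library. Tall bars are peaks within the top 10% of their list by score, and grey lines mark the window's edges. Median peak width was higher after LPS in both genotypes in every window but Atf3, and also in the lists as a whole. The stretch from 6.6 to 46.5 kb of the Tnfaip3 window was covered mostly in stimulated KO.

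After LPS the 5 windows together were covered more in both genotypes. Covered length summed over them was 88.3 kb in resting and 139 kb in stimulated wt, and 103 kb in resting and 229 kb in stimulated KO. These sums were 0.249, 0.370, 0.282 and 0.453% of the total covered length of their lists, in the same order, so the share taken by these windows was larger in each stimulated library than in the resting library of its genotype. More of the members also ranked among the highest scores of their own list after LPS. Of them, 9 of 105 (8.57%) lay in the top 10% of the list in resting wt and 22 of 95 (23.2%) in stimulated wt. In KO the numbers were 6 of 107 (5.61%) and 33 of 133 (24.8%).

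Covered length was at least 1.5-fold higher after LPS in 3 of the 5 windows in wt, where 25.9% of 3796 windows of 100 kb across the genome passed the same fold. The 3 were Tnfaip3, Socs3 and Nfkbia. In KO it was at least 1.5-fold higher in 4 of the 5, Atf3 being added, where 43.7% of all windows passed. No window of the 5 was 1.5-fold lower after LPS in wt or in KO, against 19.8 and 7.22% of all windows. The median ratio of stimulated to resting was 1.65 over the 5 and 1.05 over all windows in wt, and 2.12 and 1.36 in KO. Scaled to total covered length, 3 of the 5 were higher in each genotype, without Atf3, against 23.5% of all windows in wt and 26.6% in KO, and 22.6 and 19.5% of all windows were then lower.

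**Figure D2:**
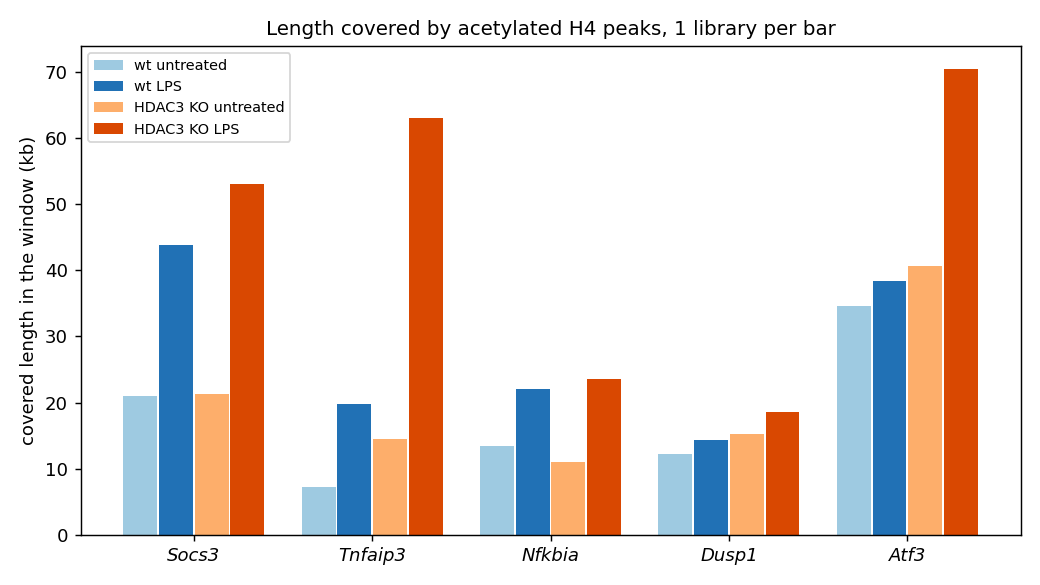
Covered length in kb in each of the 5 windows, with a bar for each of the 4 libraries and no error, since each group had 1 library. The bar for stimulated KO is the highest in each window, from 18.5 kb at Dusp1 to 70.5 kb at Atf3, with the widest gaps to stimulated wt at Tnfaip3 and Atf3. Legend names ending in LPS are the stimulated libraries.

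Nfkbia, the inhibitor of NF-kappa B, had 13.3 kb of covered length in resting wt, 22.0 kb in stimulated wt, 11.1 kb in resting KO and 23.5 kb in stimulated KO. The stimulated libraries were the higher pair and differed little from each other. The ratio to resting was 1.65 in wt and 2.12 in KO, or 1.56 and 1.53 when scaled to total covered length. The highest-scored peaks lay in 2 places in the window. The widest merged region of the 4 lists, chr12:56587024-56593653, held 4 separate peaks with scores of at most 221 in resting wt and 3 of at most 244 in resting KO. Of the resting lists, 27.8% of the wt peaks and 26.8% of the KO peaks scored as high as these. In stimulated wt a single peak of 6630 bp filled this region, with a score of 3100 that only 0.804% of the list reached. In stimulated KO 2 peaks covered 6158 bp of it, the wider of 5171 bp and also scored 3100. The other place was called in every library: its highest-scored peaks were chr12:56567425-56568841 (704) in resting wt, chr12:56565152-56568847 (967) in resting KO, chr12:56564689-56570201 (3100) in stimulated wt and chr12:56566055-56570284 (2774) in stimulated KO. The resting peaks there already ranked within the top 3.88% of the wt list and the top 2.15% of the KO list.

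Tnfaip3, the gene of A20, was the least covered window in resting wt and had the highest ratio of the 5 in each of the 4 comparisons. It had 7.21 kb of covered length in 12 peaks in resting wt, 19.8 kb in 14 peaks in stimulated wt, 14.5 kb in 20 peaks in resting KO and 63.1 kb in 46 peaks in stimulated KO. As shares of the window these are 5.15, 14.2, 10.4 and 45.1%. The stimulated library had 2.75 times the resting covered length in wt and 4.35 times in KO. No peak reached the top 10% of its list in either resting library, where the highest scores were 180 in wt and 441 in KO. After LPS a single wide peak scored 3100 in each genotype, chr10:18727140-18735200 (8061 bp) in wt and chr10:18725817-18735217 (9401 bp) in KO. Only 0.0506% of the peaks of the wt list and 0.0680% of those of the KO list were as wide. It was the only Tnfaip3 peak of the wt list in its top 10%, against 6 peaks in stimulated KO.

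The Tnfaip3 peaks fell into 2 blocks with no peak of any library between them, when regions up to 10 kb apart were joined, a division made after the values were seen. In the RefSeq order of protein-coding genes on GRCm38.p6, Tnfaip3 stands between Perp and Olig3, and the place of the gene within the blocks was not examined. The second block, chr10:18713313-18774355, holds the wide peaks named above. Its covered length was 5.28 kb in resting wt, 16.2 kb in stimulated wt, 8.59 kb in resting KO and 31.4 kb in stimulated KO. The ratio to resting was 3.06 in wt and 3.65 in KO. Scaled to total covered length it was 2.90 in wt and 2.64 in KO, so the order of the genotypes turned. The first block, chr10:18646577-18686472, had 1.92 kb in resting wt, 3.65 kb in stimulated wt, 5.90 kb in resting KO and 31.8 kb in stimulated KO. The genotypes thus lay far apart there and less so in the second block. Stimulated KO had 8.71 times the covered length of stimulated wt in the first block and 1.94 times in the second, or 6.46 and 1.44 times when scaled to total covered length. In resting cells the KO to wt ratio was 3.07 in the first and 1.63 in the second block. The resting peaks of the first block were weak, so its ratio rests on low-ranked calls. Their highest score was 80.8 in wt and 135 in KO, where the medians of the lists were 116 and 122. The number of peaks in the first block was 3 in resting wt, 6 in stimulated wt, 9 in resting KO and 26 in stimulated KO.

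In stimulated KO the highest-scored peak of the first block was chr10:18649221-18654148, 4928 bp wide with a score of 2298 that 1.60% of the list reached. Every library had a peak within that stretch, but the others covered 1152 bp in resting wt, 1226 bp in stimulated wt and 2012 bp in resting KO. No other peak of the first block lay in the top 10% of its list. In the whole window, 3 merged regions of at least 2000 bp were not called in all libraries, and each was called in stimulated KO alone. They were chr10:18671385-18673913 (score 393) and chr10:18682673-18684884 (752) in the first block and chr10:18721776-18725528 (1514) in the second, the last of which ends just before the widest peak. Of the bases covered in any library, 60.1% were covered in stimulated KO alone and 7.91% in all 4 libraries. In the other windows the share in stimulated KO alone ran from 10.4% at Dusp1 to 27.6% at Atf3. No such share was computed across the genome, where stimulated KO also covered the most, at 50.4 Mb. Stimulated KO held 99.3% of the Tnfaip3 bases covered in stimulated wt and 97.8% of those covered in resting KO. Such nesting was not particular to Tnfaip3. Over the 5 windows the lowest share of stimulated wt bases held in this way was 91.4%, at Nfkbia. That of resting KO bases was 89.9%, at Dusp1. The share of resting wt bases was not computed.

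**Figure D3:**
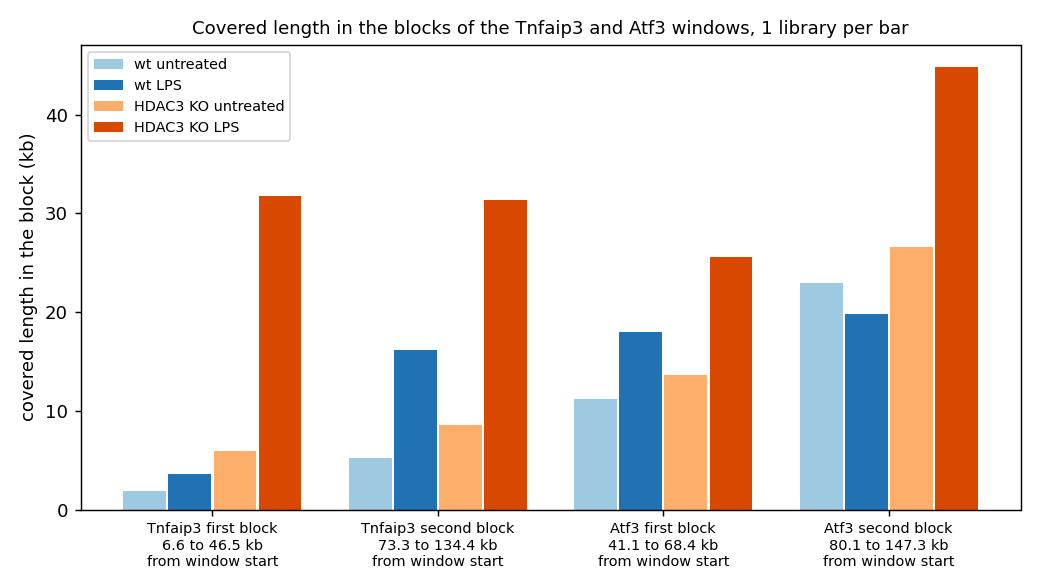
Covered length in kb in the blocks of the Tnfaip3 and Atf3 windows that were longer than 10 kb, with a bar for each library and no error. In the first Tnfaip3 block stimulated KO stands at 31.8 kb against 3.65 kb in stimulated wt, and in the second Atf3 block stimulated wt, at 19.8 kb, is the lowest of the 4 bars.

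Dusp1, the MAP kinase phosphatase, had the narrowest range of covered length over the 4 libraries. Covered length was 12.2 kb in resting wt, 14.3 kb in stimulated wt, 15.2 kb in resting KO and 18.5 kb in stimulated KO, and no ratio between these reached 1.5 in the 4 comparisons. The ratio of stimulated to resting was 1.17 in wt and 1.21 in KO, and the second became 0.88 when scaled to total covered length. Of the covered bases, 43.5% were shared by all 4 libraries, the highest share of the 5 windows. The share of bases common to all 4 libraries was not computed across the genome. The widest merged region, chr17:26648047-26652993, held 3 peaks in resting wt with scores up to 376 and 3 in resting KO with scores up to 222. After LPS its highest score was 1653 in wt, in a peak of 4153 bp, and 1660 in KO, in a peak of 3439 bp. Those were the highest-scored Dusp1 peaks of their lists, and 2.95 and 2.89% of the peaks of those lists scored as high. The resting scores of 376 and 222 were reached by 13.7% of the wt list and 29.7% of the KO list.

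Socs3, the JAK and STAT inhibitor, was the most densely covered of the 5 windows after LPS. Covered length was 21.0 kb in resting wt, 43.9 kb in stimulated wt, 21.3 kb in resting KO and 53.0 kb in stimulated KO, which is 29.9, 62.7, 30.4 and 75.8% of the window. The resting libraries were nearly equal, with a ratio of 1.02 between the genotypes. The ratio to resting was 2.09 in wt and 2.49 in KO, and 1.98 and 1.80 when scaled to total covered length. The number of peaks did not rise with it: the window held 28 peaks in resting and 23 in stimulated wt, and 23 and 22 in KO. The peaks were wider instead, with a median width of 658 bp in resting and 1594 bp in stimulated wt, and of 827 and 1760 bp in KO. Median width was also higher after LPS in the lists as a whole, at 590 and 722 bp in wt and 691 and 836 bp in KO.

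The Socs3 peaks also took higher ranks after LPS. In resting wt 2 of 28 lay in the top 10% of the list, and in stimulated wt 10 of 23. In KO it was 1 of 23 and 12 of 22. A region at the far end of the window led in resting wt (chr11:117847428-117850237, 945) and in resting KO (chr11:117847253-117848735, 755), and it led again in stimulated wt (chr11:117847017-117853142, 3100). In stimulated KO 4 peaks tied at 3100, the widest of them chr11:117832644-117842099 with 9456 bp. That peak lies in the widest merged region of the window, chr11:117830621-117842880, where resting wt had 7 peaks that covered 3836 bp and scored at most 99.8, and resting KO 5 peaks that covered 4691 bp and scored at most 377. Stimulated wt covered 8862 bp of this region with 4 peaks and stimulated KO 12013 bp with 3.

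Atf3, the longest window at 150 kb, had the largest covered length in resting cells of both genotypes. It measured 34.5 kb in resting wt, 38.4 kb in stimulated wt, 40.6 kb in resting KO and 70.5 kb in stimulated KO. As shares of the window these are 23.0, 25.6, 27.1 and 47.0%, and the resting shares were below those of Socs3 and Dusp1. The first 3 libraries lay close together and the last stood apart. The ratio to resting was 1.11 in wt and 1.73 in KO, and 1.05 and 1.25 when scaled to total covered length. The highest-scored peak was at the same place in resting wt (chr1:193047494-193050061, 1398), stimulated wt (chr1:193047219-193049651, 2592) and resting KO (chr1:193047496-193049624, 1859). Only 0.427 and 0.250% of the resting wt and resting KO lists scored as high as these, so this place ranked near the top before LPS was given. Its rank was no higher with LPS, where 1.20% of the stimulated wt list and 0.991% of the stimulated KO list scored as high. In stimulated KO the score of this place was 2943 and the highest was chr1:193014006-193021865, 7860 bp wide and scored 3100.

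Joined in the same way, the Atf3 window had 2 long blocks, which differed in how stimulated wt related to resting wt. In the first, chr1:193001060-193028416, covered length was 11.2 kb in resting wt, 18.0 kb in stimulated wt, 13.6 kb in resting KO and 25.6 kb in stimulated KO. It was higher after LPS in both genotypes, by a ratio of 1.61 in wt and 1.88 in KO. Scaled to total covered length the ratios were 1.52 in wt and 1.36 in KO, in the opposite order. A region at the start of this block, chr1:193002704-193007169, was covered over 746 bp in resting wt (highest score 174 in that list) and over 3838 bp in stimulated wt (1868). In KO it was covered over 360 bp when resting (54.7) and over 4466 bp when stimulated (2399). Those scores were reached by 35.2, 2.30, 92.9 and 1.48% of their lists, in the order given. In the second block, chr1:193040133-193107277, covered length was 22.9 kb in resting and 19.8 kb in stimulated wt, and 26.6 kb in resting and 44.8 kb in stimulated KO. The stimulated wt library was the lowest there and the stimulated KO library the highest. Its region chr1:193071098-193076017 was covered over 3150 bp in resting wt, 1557 bp in stimulated wt, 3990 bp in resting KO and 4920 bp in stimulated KO. The highest scores were 319, 94.2, 413 and 1158 in the respective lists, reached by 17.5, 64.8, 13.5 and 5.63% of those lists. In the same RefSeq gene order, Batf3 and Fam71a precede Atf3 and Nenf and Pacc1 follow it. Which of these genes the second block lies over was not examined.

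Before stimulation, the genotypes differed by 1.5-fold or more in 1 of the 5 windows, Tnfaip3, where 13.8% of all windows were as much higher in KO. Its resting ratio of KO to wt was 2.01. The ratios of the other windows were 0.83 at Nfkbia, 1.02 at Socs3, 1.18 at Atf3 and 1.25 at Dusp1, and none was 1.5-fold lower, against 14.0% of all windows. Scaled to total covered length, Tnfaip3 remained the single locus past the fold, at 1.95, where 11.9% of all windows were higher and 15.1% lower. With LPS, 2 of the 5 were at least 1.5-fold higher in KO, Tnfaip3 (3.18) and Atf3 (1.83), where 38.2% of all windows were, and none was lower, against 3.53%. The others had ratios of 1.07 at Nfkbia, 1.21 at Socs3 and 1.29 at Dusp1, below the median of 1.34 over all windows. Scaled to total covered length Tnfaip3 alone passed, at 2.36, where 20.0% of all windows were higher and 10.8% lower, and Socs3, Nfkbia and Dusp1 came to 0.90, 0.79 and 0.96. The comparisons of genotype and of LPS use the same 4 libraries and are not independent of each other.

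**Figure D4:**
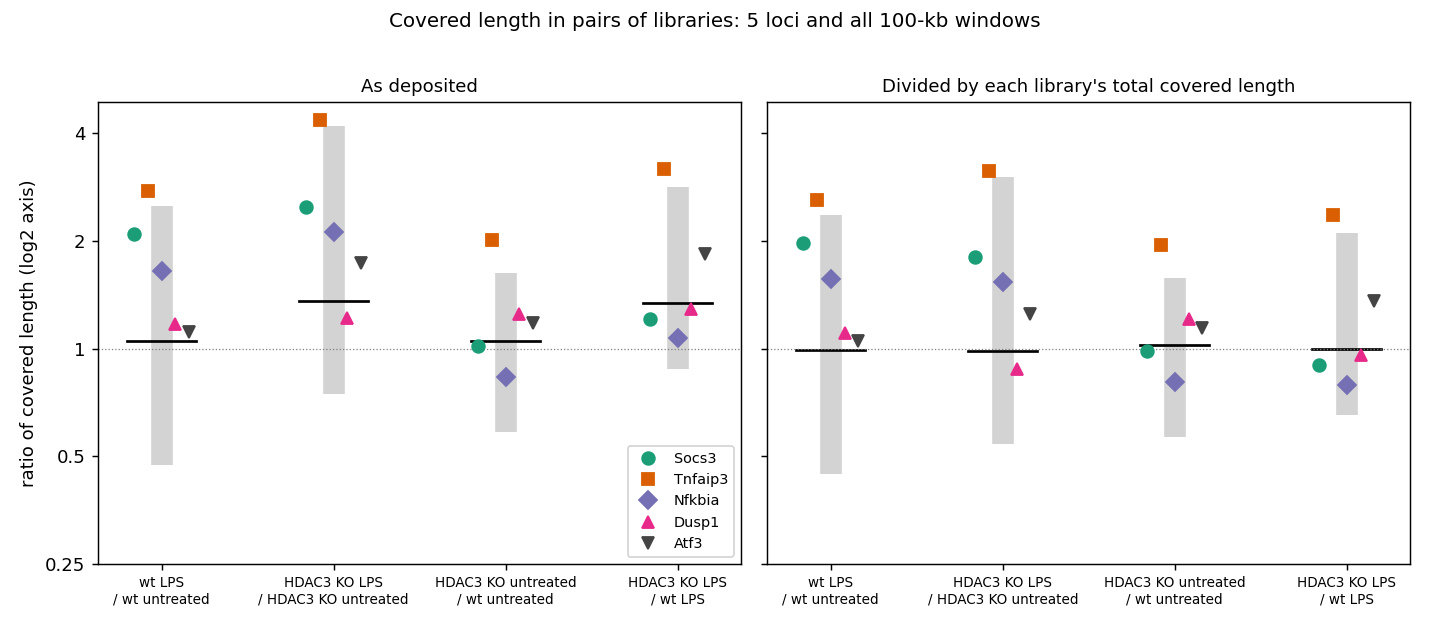
Ratio of covered length between pairs of libraries on a log2 axis, as deposited (left) and when scaled to total covered length (right), with a symbol for each locus. Grey bars span the 10th to 90th percentile of 3796 windows of 100 kb and black lines their median. Tnfaip3 lies above the grey bar in each comparison in both panels, and the other 4 loci lie within its range. The windows of the loci are 50 to 150 kb long, so their length differs from that of the background windows.

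The LPS change in covered length was larger in KO than in wt in each window as deposited. The change was 12.6 kb in wt and 48.6 kb in KO at Tnfaip3, 3.90 and 29.8 kb at Atf3, 22.9 and 31.7 kb at Socs3, 8.68 and 12.4 kb at Nfkbia, and 2.10 and 3.26 kb at Dusp1. Scaling to total covered length left the larger change in KO at Tnfaip3 (13.0 and 34.1 kb) and Atf3 (2.03 and 11.2 kb). The change in KO minus that in wt was then -4.52 kb at Socs3, -1.96 kb at Nfkbia and -3.55 kb at Dusp1. The order of the genotypes at those 3 loci thus turned with the scaling. Read depth and the efficiency of the immunoprecipitation cannot be told apart here from the amount of acetylation.

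Counted as regions, overlapping peaks of the 4 lists merged into 122 regions in the 5 windows, of which 40 (32.8%) had a peak in every library, against 28.5% of 62522 regions across the genome. In wt, 19 of 72 regions were called with LPS and not without, where 21.7% of all regions were, and 8 were called without LPS only, against 30.5%. In KO the numbers were 57 of 116, against 33.5% of all regions, and 4, against 19.3%. Of those 57 regions, 30 lay at Tnfaip3 and 12 at Atf3. Between the genotypes without LPS, 13 of 66 regions were called in KO alone, against 18.3% of all regions, and 7 in wt alone, against 26.7%. With LPS it was 55 of 119 in KO alone, against 31.1% of all regions, and 7 in wt alone, against 15.5%. Of the 55, 33 were at Tnfaip3. When peaks up to 500 bp apart were merged, the 57 became 12 and the 55 became 14. The shares of all regions under that merging are not given here, so these counts cannot be set against a background.

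The windows of 100 kb elsewhere whose covered shares were nearest to those of Tnfaip3 over the 4 libraries were found by the summed absolute difference in percentage points. The nearest was chr5:66400001-66500000, with 6.82, 24.6, 13.0 and 42.4% covered in resting wt, stimulated wt, resting KO and stimulated KO and a summed difference of 17.4 points. It was followed by chr1:132900001-133000000 (20.0 points) and chr4:104900001-105000000 (21.1 points). In each of these 3 windows stimulated KO was the most and resting wt the least covered library, the order seen at Tnfaip3. The windows were picked for their likeness to Tnfaip3, so the shared order is no separate observation.

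The windows' edges are part of the rule. At Nfkbia a peak of 3615 bp (score 1284) in stimulated KO began 3.03 kb before the window and was cut there, and the nearest peak wholly outside lay 0.064 kb away (score 84.6, resting wt). At Dusp1 the last peak crossed the edge by up to 0.852 kb. Beyond the end of the Tnfaip3 window a peak of 3125 bp (score 710) in stimulated KO began 0.917 kb away, and the nearest inside it ended 5.65 kb from the edge with a score of 104. Beyond the Atf3 window the nearest lay 0.087 kb away (score 234), while around Socs3 the nearest peak lay 13.5 kb away. With each window widened by 25 kb on both sides, the KO to wt ratio with LPS was 2.69 at Tnfaip3 and 1.84 at Atf3.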

How the data were processed

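Acetylated H4 was mapped by ChIP-seq in 4 libraries, 1 for each genotype and treatment. Reads were handled with Bowtie on mouse build mm9, per the submitters' processing notes. MACS called the peaks of every ChIP library with an input as control, per the file headers. Versions, settings and the input used are not given in the sources used here. The deposited score of each peak is the authors' value on an unstated scale, from about 50 upwards. Depth is unknown, so no interval was computed.

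Windows were taken as fixed mm9 coordinates. Covered length was summed over peaks cut at the window. Peaks sharing at least 1 bp were merged into regions over the 4 lists. The background was every 100-kb window with at least 5 kb covered in at least 1 library. A ratio of 1.5 counted as changed, and no test was run. Peaks named in each window were the highest-scored of each library, the widest merged region, and regions of at least 2000 bp not called in all libraries. Other named regions, and the blocks joined across 10 kb, were chosen after their values were seen. The members and lists were chosen with earlier results of these data known. Lists of other regulators and of macrophage markers were planned for use with mm9 gene models, which were not used here. Promoters and gene order came from RefSeq (GRCm38.p6). The coverage and region counts were tested on simulated lists with base-by-base answers. Alternatives were stricter score limits, joined peaks, uncut peaks, wider windows, division by total covered length and other background windows. Software was Python 3.11.15, numpy 2.4.6 and matplotlib 3.10.9.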

Additional observations from a re-analysis of the deposited data

Results flagged for a closer look

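At Nfkbia the number of peaks moved in opposite directions with LPS in the genotypes, by -2 in wt (14 to 12) and by 4 in HDAC3 KO (8 to 12), while covered length was higher after LPS in both. In the second long block of the Atf3 window covered length changed by -3.11 kb with LPS in wt and by 18.2 kb in HDAC3 KO. Scaled to total covered length, the ratio of LPS-treated to untreated in that block was 0.82 in wt and 1.22 in HDAC3 KO. With 1 library per group, neither difference between the genotypes was tested.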

How the results depend on the processing

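No paired analysis was possible because each group had 1 library, which also prevented leaving any library out. A ratio counts here as moved when it crossed 1 or changed by over 1.5 times, and a count when it changed by over 1.5 times. No ratio that was 1.5-fold or more changed direction under any of the alternatives run. Of 120 ratios of single loci under 6 alternatives, 104 did not move. The largest move was at Tnfaip3 when each list was limited to its 20000 highest-scored peaks. There the ratio of LPS-treated to untreated wt was 17.1 and that of HDAC3 KO to wt without LPS 7.46. Both ratios have 0.766 kb in untreated wt as denominator, a single peak of 766 bp with a score of 180. The second of them was 2.01 as deposited. It fell to 1.59 with peaks at or above the median score and to 1.58 with windows widened by 25 kb. At Atf3 the ratio in wt was 0.97 with peaks at or above the median score. The median HDAC3 KO to wt ratio with LPS over the 5 loci was 0.96 after division by total covered length. The number of loci 1.5-fold higher in that comparison was 1 after this division, and 1 at 2-fold.

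Counts of regions depended most on merging and score limits. No share of all regions is given beside the counts below, so they show only how the counts moved. Regions called in wt with LPS only numbered 8 at or above the median score, 11 with the 20000 highest-scored peaks and 6 with peaks within 500 bp merged, and those without LPS only 5 and 5 under the last 2 settings. With peaks within 500 bp merged, HDAC3 KO had 12 regions with LPS only and 2 without LPS only. Without LPS, HDAC3 KO alone had 8, 8 and 7 regions under the 3 settings. With LPS it had 36 with the 20000 highest-scored peaks and 14 with peaks merged, and wt alone had 1, 1 and 4 under the 3 settings. Depth is unknown, and a weak or narrow peak missed in a shallow library cannot be told apart from an absent one.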
